A study of Sus scrofa with 22 samples.

Results

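The 9 genes described here belong to the antioxidant response governed by the transcription factor NRF2, which the gene NFE2L2 encodes. They were chosen by name from the deposited tables of pig RNA sequencing, with earlier results of these data known. The genes are NFE2L2 itself with NQO1, TXNRD1, SRXN1, GCLM, GCLC, HMOX1, SLC7A11 and GSR. All 9 had an entry among the 27376 genes counted in 16 libraries and among the 29850 genes counted in the 6 libraries of the CQ experiment, and all 9 passed the filter on low counts in each comparison.

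NRF2 is made continuously and is marked for destruction by KEAP1, a cysteine-rich adaptor of a CUL3 ubiquitin ligase. When oxidants or electrophiles modify KEAP1, NRF2 escapes destruction, pairs with a small MAF protein and binds antioxidant response elements near genes for glutathione synthesis, thioredoxin recycling, quinone reduction, heme breakdown and NADPH supply. Since much of this control acts on the protein, the mRNA of NFE2L2 is not a measure of NRF2 activity.

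The 22 libraries fall into 6 groups. There were 5 libraries of passage 1 organoids grown in LPM and 5 of foliate papillae, the taste-bud-bearing folds at the side of the tongue, from the same pigs, numbered 1 to 5. In a second experiment 3 organoid libraries in LPM minus FGF10 stood beside 3 in LPM. A further experiment set 3 libraries of organoids finished in CQ, with LPM to day 10 and CQ until day 16 or 17, beside 3 in LPM. LPM contained the antioxidant and cysteine source N-Acetyl-Cysteine at 1.25 µM and FGF10 at 100 ng/ml, together with nicotinamide, forskolin, Prostaglandin E2, CHIR99021, A-83-01, SB202190, Y-27632, insulin and the proteins EGF, FGF2, R-Spondin-2, Noggin, SHH and Wnt3a. Neither the meaning of LPM and CQ nor what CQ contained was available from the labels. The LPM libraries set beside CQ carry no day, so culture age and medium cannot be told apart. Papillae were extracted with another RNA kit and no DNase step, which cannot be told apart from the difference between organoid and tissue. The labels call the FGF10 libraries biological replicates but name no animals for either medium experiment, so p-values there measure only the spread between these libraries, which may be partly technical.

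Total counts per library were 21.79 to 27.77 M in passage 1 organoids, 17.04 to 20.71 M in papillae, 19.64 to 23.45 M in LPM without FGF10 and 20.77 to 25.23 M in its LPM group. CQ libraries held 14.67 to 16.0 M counts, and the LPM libraries beside them 19.62 to 26.01 M. The labels give stem cells and mature taste cells as the cell type. Summed taste cell markers were 34.8 to 56.6 CPM (counts scaled to library size with edgeR's TMM factors) in passage 1 organoids and 115 to 271 CPM in papillae. Papillae also held fibroblast, muscle, gland, endothelial and macrophage markers. Fibroblast markers summed to 0.779 to 3.12 CPM in organoids and 1850 to 6900 CPM in papillae, and gland markers to 0.92 to 9.03 CPM in organoids and 38000 to 182000 CPM in papillae. In such bulk libraries, fewer cells of a type and less RNA per cell cannot be told apart.

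Passage 1 organoids were first set against papillae of the same pigs. Of the 9 genes, 4 rose in organoids (GCLC, GSR, TXNRD1 and SLC7A11), 3 fell (GCLM, NQO1 and NFE2L2) and 2 were not called (SRXN1 and HMOX1). The test was edgeR's quasi-likelihood test with Benjamini-Hochberg adjustment over all genes, and it did not pair the libraries by pig. With pig as a block 3 rose and 2 fell, the lost calls being SLC7A11 and NQO1. With library totals as the only scaling, 4 rose and 1 fell, and with size factors from the epithelium list 2 rose and 4 fell. The epithelium list was no fixed reference, since with TMM scaling 7 of its 14 genes were called higher and 3 lower in organoids. Calls were common in this contrast, at 67.5% of the 16311 genes tested, 32.4% higher and 35.1% lower. Over the same genes, pig as a block gave 4956 higher and 5723 lower, and library totals 6771 higher and 4592 lower. Epithelium size factors gave 1248 higher and 9088 lower. Of the 9 genes, 5 had groups that did not overlap, against 54.1% of all genes. Their median log2 fold change was 0.15, against -0.01 over all genes.

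**Figure D1:**
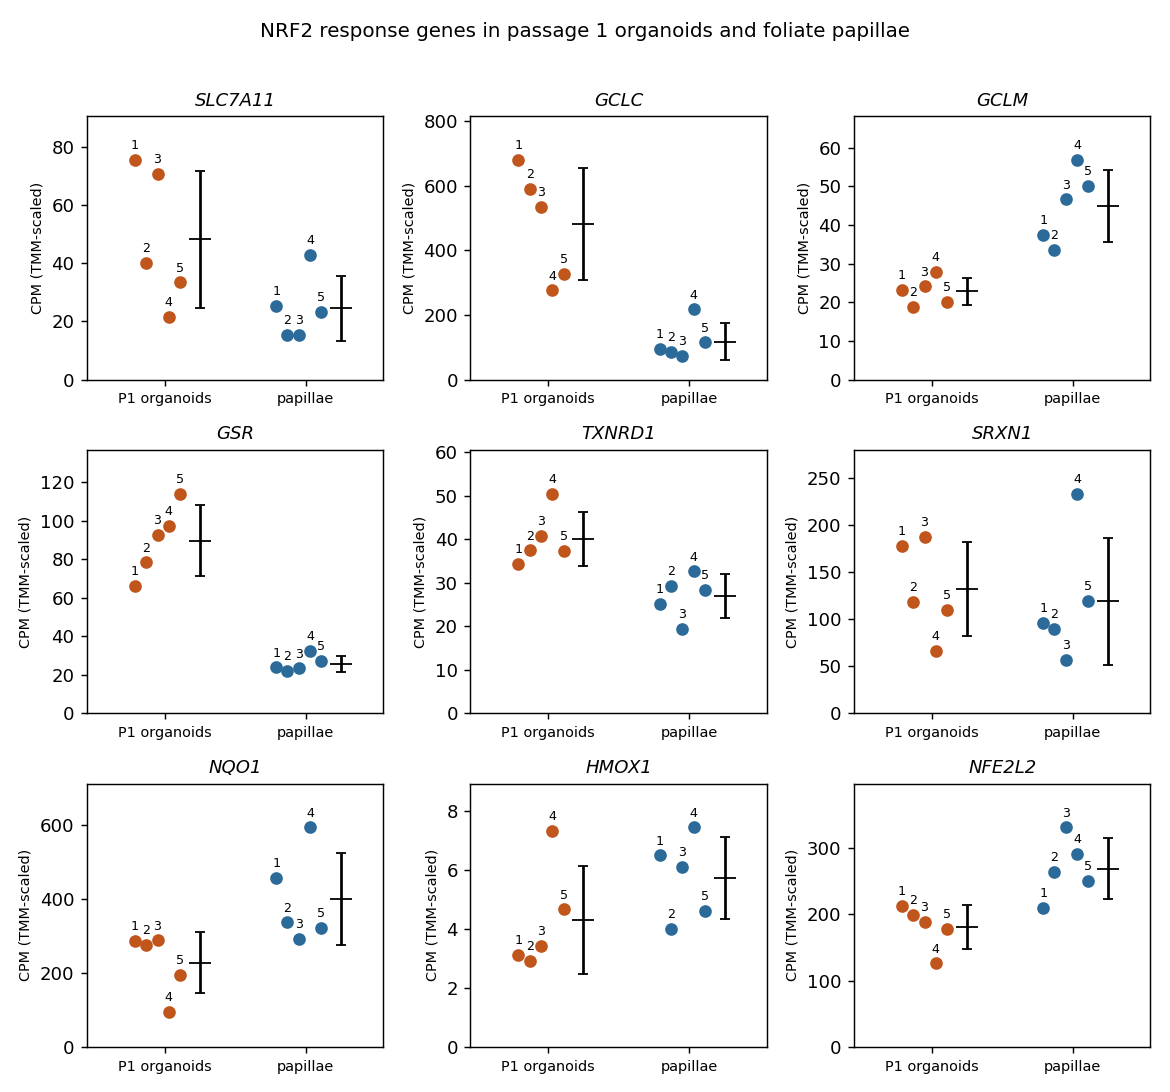
Levels of the 9 genes in passage 1 organoids (left in each panel) and papillae (right), in CPM on the vertical axes. Numbers mark the pigs, and bars the mean with its SD over 5 libraries. GCLC and GSR were higher in every organoid than in any papilla, GCLM and NQO1 lower, and organoid 4 stood at an edge of its group for most genes.

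Glutathione synthesis split between its subunits. GCLC (chromosome 7, 27209565 to 27253535, Sscrofa11.1), the catalytic subunit of glutamate-cysteine ligase, had 678, 590, 535, 276 and 328 CPM in organoids of pigs 1 to 5, against 95.1, 85.6, 74.0, 217 and 115 CPM in the papillae of pigs 1 to 5. Every organoid lay above every papilla, with the gap smallest in pig 4. GCLC averaged 481 ± 172 CPM in organoids and 117 ± 57.5 CPM in papillae (SD, n = 5 each), 4.10-fold higher (log2 fold change 2.04, SE 0.34, adjusted p = 0.000284).

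GCLM (chromosome 4, 123371198 to 123390130), the modifier subunit that raises the efficiency of GCLC, moved the other way. It had 23.1, 18.9, 24.1, 27.9 and 20.1 CPM in organoids, against 37.4, 33.6, 46.6, 56.7 and 50.1 CPM in papillae. No organoid reached the lowest papilla. The means were 22.8 ± 3.53 CPM in organoids and 44.9 ± 9.42 CPM in papillae, a log2 fold change of -0.97 (SE 0.17, adjusted p = 0.000315), and each of the 5 pigs had less in its organoids. Per kilobase of annotated exon, GCLC stood 12.6 to 39.7 times above GCLM in organoids and 2.02 to 4.87 times above it in papillae, with medians of 28.3 and 3.24. These ranges did not overlap, and the ratio does not depend on how libraries are scaled.

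SLC7A11 (chromosome 8, 88608083 to 88690589) imports cystine, the source of the cysteine used by this ligase. Its levels were 75.3, 40.1, 70.5, 21.5 and 33.4 CPM in organoids, against 25.3, 15.4, 15.5, 42.8 and 23.3 CPM in papillae. Organoids were higher in 4 of 5 pigs and lower in pig 4, and the groups overlapped. The mean was 48.1 ± 23.6 CPM in organoids and 24.5 ± 11.2 CPM in papillae (log2 fold change 0.98, SE 0.38, adjusted p = 0.0384). This call did not survive with pig as a block (adjusted p = 0.0864) or with epithelium size factors (log2 fold change 0.16, adjusted p = 0.725). It was also lost without papilla 1, 2, 3 or 5 (adjusted p = 0.061, 0.0802, 0.0847 and 0.0683) and without organoid 1 or 3 (0.0899 and 0.0862).

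GSR (chromosome 15, 54382564 to 54433989), the reductase that returns oxidized glutathione to its reduced form with NADPH, was the most even of the increases. It had 66.2, 78.4, 92.5, 97.5 and 114 CPM in organoids, against 23.8, 22.2, 23.3, 32.2 and 27.3 CPM in papillae. The groups were far apart, and organoid to papilla ratios within pigs were 2.78 to 4.18. GSR averaged 89.7 ± 18.3 CPM in organoids and 25.8 ± 4.06 CPM in papillae, 3.49-fold higher (log2 fold change 1.80, SE 0.16, adjusted p = 3.19e-06).

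Both thioredoxin system genes had higher means in organoids, and 1 of them passed the test. TXNRD1 (chromosome 5, 80170334 to 80213889), cytosolic thioredoxin reductase, had 34.3, 37.4, 40.8, 50.4 and 37.2 CPM in organoids, against 25.1, 29.2, 19.3, 32.6 and 28.4 CPM in papillae. The lowest organoid was above the highest papilla by a small margin. TXNRD1 averaged 40.0 ± 6.23 CPM in organoids and 26.9 ± 5.01 CPM in papillae (log2 fold change 0.57, SE 0.16, adjusted p = 0.00719), but with epithelium size factors its log2 fold change was -0.19 and not called.

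SRXN1 (chromosome 17, 34582377 to 34589308), sulfiredoxin, repairs overoxidized peroxiredoxins. It had 178, 118, 187, 66.6 and 110 CPM in organoids, against 96.2, 89.9, 56.4, 233 and 119 CPM in papillae. The groups overlapped, and pig 4 had the lowest organoid and the highest papilla. The log2 fold change was 0.15 (SE 0.37, adjusted p = 0.733), and it was -0.02 without papilla 3 and -0.67 with epithelium size factors. With both libraries of pig 4 left out, an alternative added once the values were known, SRXN1 rose by 0.72 on the log2 scale (adjusted p = 0.0317).

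NQO1 (chromosome 6, 17292962 to 17302593) reduces quinones by transferring a pair of electrons at once and is a standard reporter of NRF2 activity. It had 286, 276, 288, 95.6 and 195 CPM in organoids, against 457, 337, 293, 594 and 321 CPM in papillae. Every organoid lay below every papilla, but those of pig 3 were nearly equal, at a ratio of 0.981. NQO1 averaged 228 ± 83.4 CPM in organoids and 401 ± 125 CPM in papillae (log2 fold change -0.81, SE 0.30, adjusted p = 0.0329). The call was lost with pig as a block (adjusted p = 0.0785), with library totals as the scaling (log2 fold change -0.54, adjusted p = 0.116), and without papilla 1 (0.0665), papilla 4 (0.0915), organoid 5 (0.073) or both libraries of pig 4 (log2 fold change -0.43, adjusted p = 0.0689).

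HMOX1 (an unplaced scaffold, 1954828 to 1963836), the oxygenase that opens heme, was sparse, with 71 to 215 counts per organoid and 69 to 120 per papilla. It had 3.13, 2.91, 3.43, 7.33 and 4.66 CPM in organoids, against 6.49, 4.01, 6.09, 7.44 and 4.62 CPM in papillae. The groups overlapped, with organoid 4 near the top papilla. The log2 fold change was -0.41 (SE 0.30, adjusted p = 0.238). It was called lower without organoid 4 (log2 fold change -0.68, adjusted p = 0.0324) and with epithelium size factors (-1.15, adjusted p = 0.0189). HMOX1 is abundant in macrophages, whose markers summed to 39.1 to 113 CPM in organoids and 174 to 277 CPM in papillae. Of 9 markers tested, 6 were lower and 2 higher in organoids, where CD163, C1QA, C1QB, C1QC and MSR1 were at 0. CD68, 1 of the 2 higher, averaged 48.9 ± 26.4 CPM in organoids and 17.3 ± 5.12 CPM in papillae. CSF1R averaged 0.726 ± 0.505 CPM in organoids and 41.9 ± 9.44 CPM in papillae. Both were named after their values were seen. The part of macrophages in the HMOX1 difference was not tested.

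NFE2L2 (chromosome 15, 82967485 to 83146185) had 213, 199, 189, 126 and 178 CPM in organoids, against 209, 264, 331, 291 and 250 CPM in papillae. Only papilla 1 lay among the organoids. NFE2L2 averaged 181 ± 33.5 CPM in organoids and 269 ± 45.5 CPM in papillae (log2 fold change -0.57, SE 0.17, adjusted p = 0.0103), but was not called with library totals as the scaling (-0.30, adjusted p = 0.16). Of its exonic bases, 13.6% are shared with HNRNPA3 and AGPS on the opposite strand, and since strand was ignored, pairs from those bases were counted for both genes. Neither neighbour was called in this contrast, with log2 fold changes of -0.04 and 0.17.

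Pig 4 stood apart in both sample types. Its organoid was the lowest of 5 for NQO1, SRXN1, GCLC, SLC7A11 and NFE2L2 and the highest for TXNRD1, GCLM and HMOX1. Its papilla was the highest of 5 for each of the genes except NFE2L2. Within pig 4 the organoid to papilla ratio was 0.161 for NQO1, 0.286 for SRXN1, 0.502 for SLC7A11 and 1.27 for GCLC. In the other pigs the ratios were 0.608 to 0.981 for NQO1, 0.926 to 3.32 for SRXN1, 1.44 to 4.54 for SLC7A11 and 2.85 to 7.22 for GCLC. The proliferation marker MKI67, named after its values were seen, was at 283 CPM in organoid 4 and 4.60 to 32.9 CPM in the other organoids. Its part in these levels was not tested. Without pig 4, an alternative added once the values were known, 7 of the 9 genes were called, 5 higher and 2 lower. Over all genes this alternative called 10651, 5025 higher and 5626 lower.

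**Figure D2:**
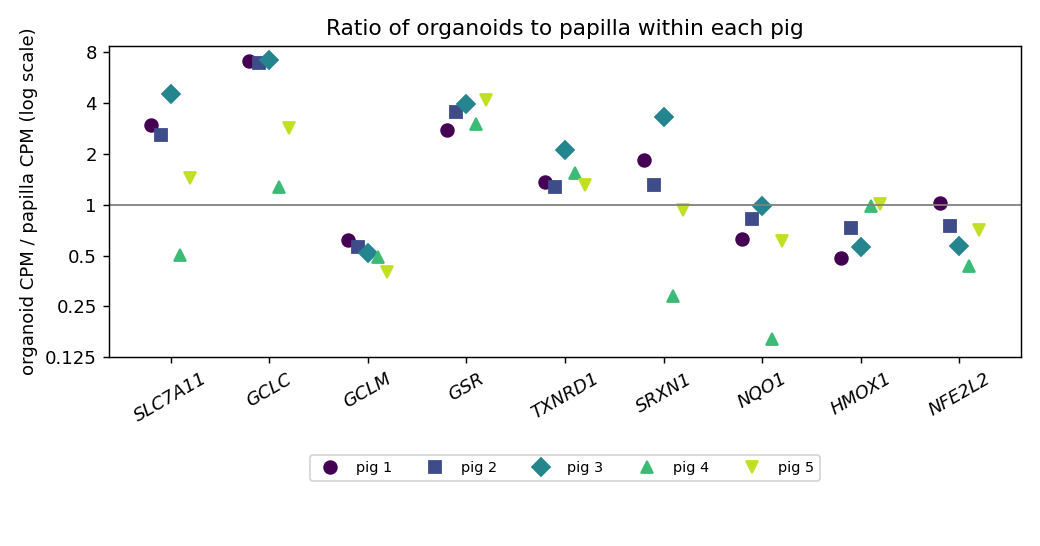
Ratio of organoid to papilla level within each pig for the 9 genes, on a log2-spaced vertical axis with a line at equality. GSR, TXNRD1 and GCLC lay above the line in all 5 pigs and GCLM and NQO1 below it, while pig 4 had the lowest ratio of NQO1, SRXN1, GCLC, SLC7A11 and NFE2L2.

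Other genes of the pathway were read from 8 lists with the 9 genes left out. Of 96 tested, 36 rose and 19 fell in organoids, but with epithelium size factors 15 rose and 46 fell. Over all genes tested with TMM scaling, the share to set beside each list, 32.4% were called higher and 35.1% lower. With epithelium size factors, 1248 of all 16311 genes were called higher and 9088 lower. The regulators had 6 higher and 2 lower of 13. The ligase scaffold CUL3 averaged 79.2 ± 16.0 CPM in organoids and 51.9 ± 2.95 CPM in papillae (log2 fold change 0.61, adjusted p = 0.00227; -0.17 with epithelium size factors). The NRF2 relative NFE2L3 averaged 134 ± 29.5 CPM in organoids and 249 ± 30.1 CPM in papillae (-0.90, adjusted p = 0.000489). KEAP1 itself, named after its values were seen, was not called (-0.15, adjusted p = 0.164).

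In the glutathione list 6 of 17 genes rose and 3 fell. The conjugate exporter ABCC3 averaged 275 ± 51.0 CPM in organoids and 22 ± 3.22 CPM in papillae, 12.5-fold higher (adjusted p = 3.98e-08). ABCC4, a related exporter, averaged 117 ± 19.7 CPM in organoids and 14.4 ± 1.31 CPM in papillae (adjusted p = 3.19e-08). The glutathione transferase GSTM3 averaged 22.3 ± 14 CPM in organoids and 118 ± 37.3 CPM in papillae (log2 fold change -2.41, adjusted p = 0.000557). Of the NADPH genes 4 of 8 rose and 1 fell. Malic enzyme ME1 averaged 55.1 ± 16.7 CPM in organoids and 13.1 ± 2.12 CPM in papillae (2.07, adjusted p = 9.2e-06).

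The thioredoxin list had 5 higher and 2 lower of 14. PRDX6, a peroxiredoxin that uses glutathione, averaged 389 ± 111 CPM in organoids and 140 ± 36.9 CPM in papillae (log2 fold change 1.47, adjusted p = 0.000185). PRDX5, a mitochondrial and peroxisomal peroxiredoxin, averaged 49.8 ± 11 CPM in organoids and 168 ± 41.6 CPM in papillae (-1.75, adjusted p = 1.73e-05). Of 10 heme and iron genes, 4 rose and 1 fell. The ferritin light chain FTL averaged 2250 ± 884 CPM in organoids and 630 ± 69.7 CPM in papillae (1.84, adjusted p = 8.7e-05). Its level is uncertain, since near-identical copies may lose pairs that map to several places, which was not tested.

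Detoxification was the list with most calls downward, 8 lower and 3 higher of 16, against 35.1% lower and 32.4% higher of all genes. Its median log2 fold change was -0.9, against -0.01 over all genes. The carbonyl reductase CBR1 averaged 1.33 ± 1.04 CPM in organoids and 131 ± 44.3 CPM in papillae (log2 fold change -6.63, adjusted p = 6.75e-07). PIR, pirin, averaged 3.90 ± 1.21 CPM in organoids and 34.8 ± 8.53 CPM in papillae (-3.16, adjusted p = 1.29e-06). Carboxylesterase CES1 went the other way, with 449 ± 198 CPM in organoids and 126 ± 48.9 CPM in papillae (1.84, adjusted p = 0.000946). Of 4 superoxide dismutase and catalase genes 2 rose and 2 fell. The ATF4 list holds targets of this stress factor, which also acts on SLC7A11, and ATF4 itself. Of its 14 genes, 6 rose and none fell. Among the ATF4 targets, DDIT4 averaged 865 ± 356 CPM in organoids and 63.7 ± 14.1 CPM in papillae (3.76, adjusted p = 8.93e-07).

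The next comparison asked what removing FGF10 from LPM did. FGF10 is a growth factor that signals to epithelium through FGFR2. Of the 9 genes, NQO1 and GCLC fell without FGF10, none rose and 7 were not called. Calls were rare in this contrast, at 1.78% of 14262 genes, 0.582% higher and 1.2% lower. Groups did not overlap for 6 of the 9 genes, against 16.6% of all genes. All 9 log2 fold changes were below 0, against 49.1% of all genes, with a median of -0.15 against 0.00, although NFE2L2 came to 0.00 with library totals and 0.04 with epithelium size factors. At an unadjusted p under 0.05 with TMM scaling, 6 of the 9 were lower, against 6.53% of all genes. With epithelium size factors the median over all genes was 0.06. These counts are descriptions, and the 9 genes were not tested as a set.

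**Figure D3:**
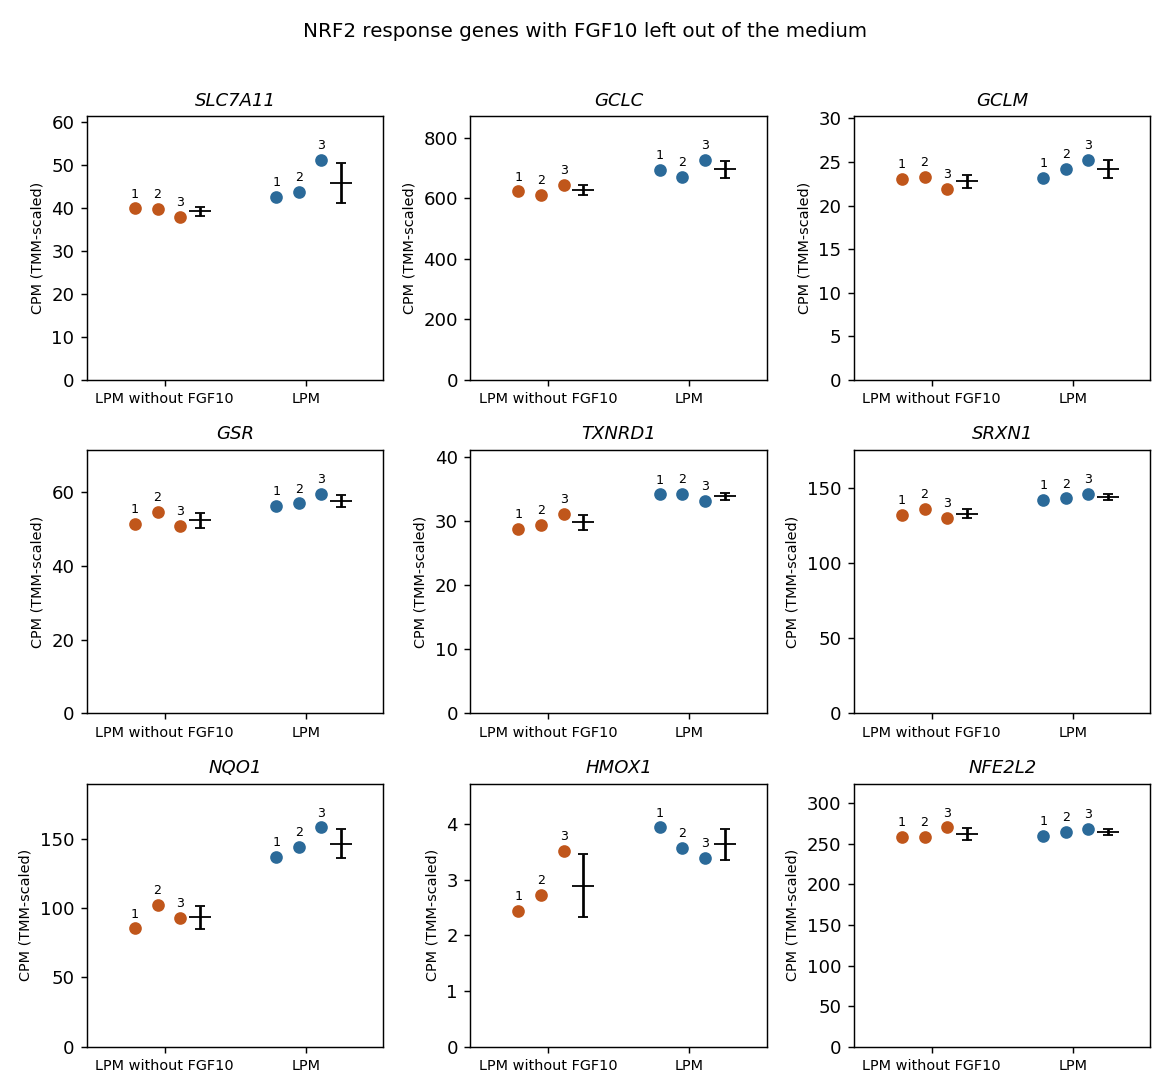
Levels of the 9 genes in LPM without FGF10 (left in each panel) and LPM (right), in CPM on the vertical axes. Numbers mark the replicates, and bars the mean with its SD over 3 libraries. NQO1 showed the widest separation, and GCLM, HMOX1 and NFE2L2 overlapped.

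NQO1 had 85.3, 102 and 92.6 CPM without FGF10, against 137, 144 and 158 CPM in LPM. The 3 libraries without FGF10 were all well below the 3 in LPM. The log2 fold change was -0.65 (SE 0.06, adjusted p = 7.94e-08), and adjusted p was 9.8e-45 to 1.15e-05 over 14 alternatives.

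The catalytic subunit GCLC had 623, 612 and 645 CPM without FGF10, against 694, 670 and 726 CPM in LPM. The groups did not overlap, but the step was small. GCLC averaged 627 ± 17.2 CPM without FGF10 and 697 ± 27.8 CPM in LPM (SD, n = 3 each), a log2 fold change of -0.15 (SE 0.04, adjusted p = 0.0397). The call was lost with library totals (adjusted p = 0.079) or epithelium size factors (0.198), without LPM replicate 1, 2 or 3 (0.0633, 0.0572 and 0.125), and without replicate 1 or 2 of the group lacking FGF10 (0.231 and 0.107). Its partner GCLM averaged 22.8 ± 0.78 CPM without FGF10 and 24.2 ± 0.999 CPM in LPM, with overlap (-0.08, SE 0.07, adjusted p = 0.698). The per-length ratio of GCLC to GCLM was 33.4 to 37.6 without FGF10 and 35.4 to 38.2 in LPM, also overlapping.

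The cystine importer SLC7A11 had 39.9, 39.7 and 38.0 CPM without FGF10, against 42.6, 43.8 and 51.1 CPM in LPM. The groups did not overlap, and LPM replicate 3 was highest. Its log2 fold change of -0.22 (SE 0.06) was not called (adjusted p = 0.0626), but was called with LPM replicate 1 left out (0.0239), with libraries thinned to equal totals (0.0284) and with no filter on low counts (0.00625). Glutathione reductase GSR had 51.4, 54.7 and 51.0 CPM without FGF10, against 56.3, 57.0 and 59.6 CPM in LPM, again with no overlap (-0.14, SE 0.05, adjusted p = 0.198).

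TXNRD1 had 28.8, 29.4 and 31.1 CPM without FGF10, against 34.1, 34.2 and 33.1 CPM in LPM. SRXN1 had 132, 136 and 130 CPM without FGF10, against 142, 143 and 146 CPM in LPM. Both were lower in each library without FGF10, and neither was called (log2 fold changes -0.18 and -0.12, SE 0.06 and 0.04, adjusted p = 0.121 and 0.148). HMOX1 averaged 2.90 ± 0.559 CPM without FGF10 and 3.64 ± 0.272 CPM in LPM, with overlap (-0.33, SE 0.18, adjusted p = 0.488). NFE2L2 averaged 262 ± 6.78 CPM without FGF10 and 264 ± 3.85 CPM in LPM, also overlapping (-0.01, SE 0.04, adjusted p = 0.955). Neither KEAP1 (-0.05, adjusted p = 0.775) nor the neighbours HNRNPA3 (-0.03) and AGPS (-0.06) of NFE2L2 were called.

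Across the pathway lists 7 of 93 genes fell without FGF10 and none rose, against 1.2% lower and 0.582% higher of all genes. With library totals 4 fell, and with epithelium size factors 3 fell and 2 rose. Over all 14262 genes, 127 fell and 93 rose with library totals, and 95 fell and 238 rose with epithelium size factors. Of the 7, 4 were among the 8 NADPH genes. ME1 averaged 35.8 ± 4.25 CPM without FGF10 and 47.9 ± 1.91 CPM in LPM (log2 fold change -0.42, SE 0.06, adjusted p = 0.00027). PGD, which makes NADPH in the pentose phosphate pathway, averaged 131 ± 3.22 CPM without FGF10 and 151 ± 2.29 CPM in LPM (-0.21, adjusted p = 0.00215). TALDO1, transaldolase, fell as well (-0.19, adjusted p = 0.00771) and was named after its values were seen.

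The other 3 were the carboxylesterase CES1 and the glutathione peroxidases GPX1 and GPX2. CES1 averaged 605 ± 16.5 CPM without FGF10 and 720 ± 18.6 CPM in LPM (log2 fold change -0.25, adjusted p = 0.000145). GPX1 (-0.17, adjusted p = 0.025) lost its call without LPM replicate 2 (0.183) or without replicate 1 or 2 of the group lacking FGF10 (0.14 and 0.123), and with library totals (0.0525) or epithelium size factors (0.164). GPX2 (-0.22, adjusted p = 0.046) lost its call without LPM replicate 1, 2 or 3 (0.0996, 0.244 and 0.0669), without replicate 1 or 2 of the other group (0.195 and 0.172), with DESeq2 (0.112), limma (0.0506), a replicate block (0.072) or thinned libraries (0.0807), and with library totals (0.0871) or epithelium size factors (0.162). No regulator, thioredoxin, heme and iron, superoxide dismutase, catalase or ATF4 list member was called. Summed epithelial markers were 9290 to 9640 CPM without FGF10 and 9710 to 9890 CPM in LPM, with 1 of 14 markers lower. Their part in the small decreases was not tested.

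Finishing the organoids in CQ came with over 3-fold higher TXNRD1, SRXN1 and HMOX1 and with lower GCLC and NFE2L2. Of the 9 genes, 5 rose in CQ (TXNRD1, SRXN1, HMOX1, GCLM and GSR), 2 fell (GCLC and NFE2L2), and NQO1 and SLC7A11 were not called. The groups did not overlap for any of the 9, against 61.1% of all genes without overlap. Calls were again common, at 47.9% of 13827 genes, 23.1% higher and 24.8% lower. The members' median log2 fold change was 0.39, against -0.07 over all genes. Of the genes called in all, 48.1% were higher, and with epithelium size factors 66.9%. With TMM scaling, 2 of the 14 epithelium genes were themselves called higher and 6 lower in CQ.

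**Figure D4:**
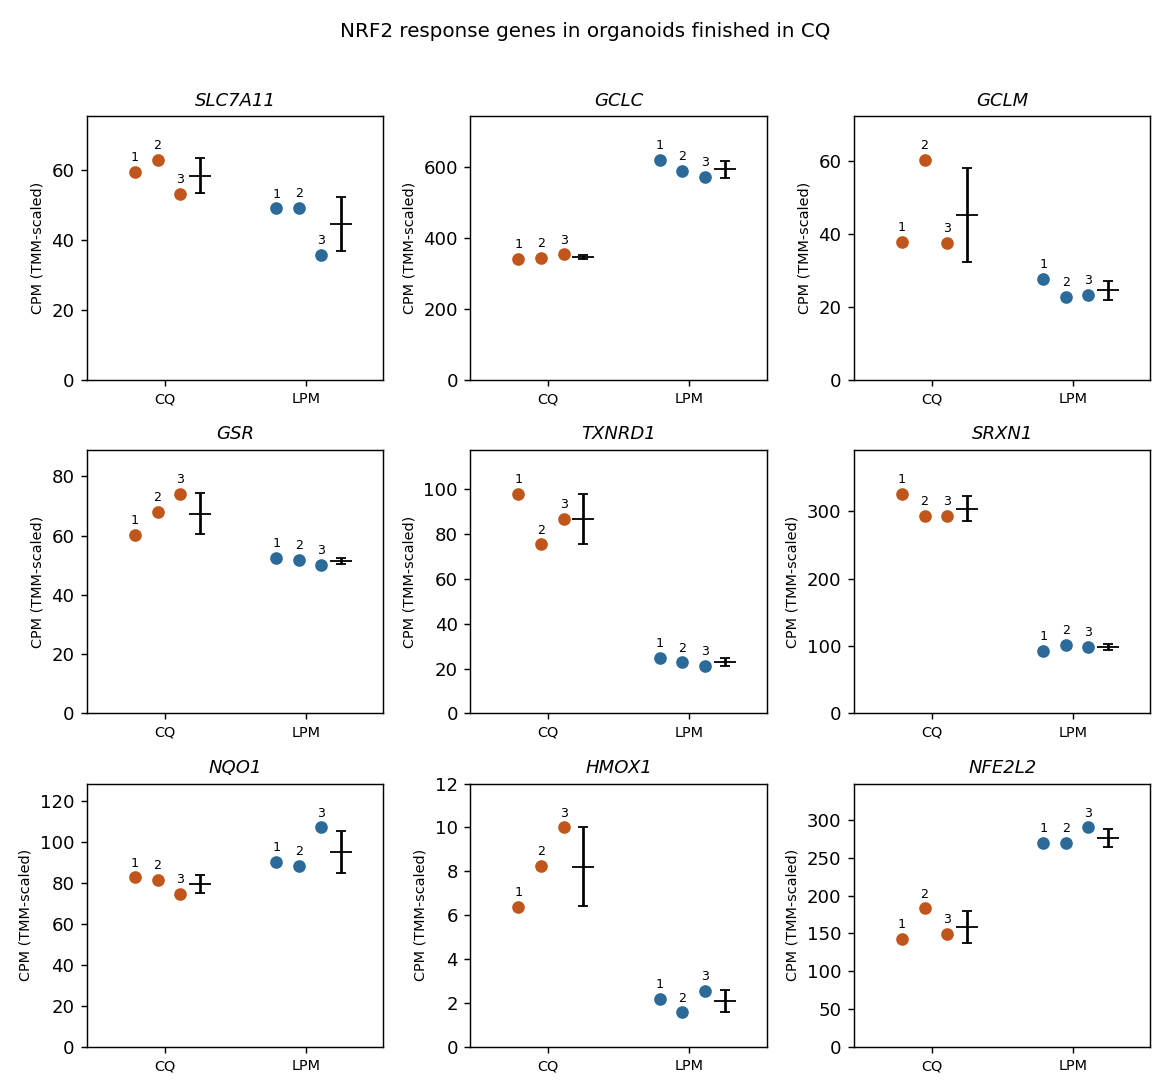
Levels of the 9 genes in CQ (left in each panel) and in LPM of the same experiment (right), in CPM on the vertical axes. Numbers mark the replicates, and bars the mean with its SD over 3 libraries. TXNRD1, SRXN1 and HMOX1 were over 3-fold higher in CQ, and GCLC and NFE2L2 lower, with no overlap in any panel.

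TXNRD1 had 98.0, 75.4 and 86.8 CPM in CQ, against 24.6, 22.7 and 21.2 CPM in LPM. All 3 CQ libraries lay far above all 3 LPM libraries. It averaged 86.7 ± 11.3 CPM in CQ and 22.8 ± 1.73 CPM in LPM (SD, n = 3 each), 3.80-fold higher (log2 fold change 1.93, SE 0.14, adjusted p = 9.51e-06).

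SRXN1 had 326, 293 and 293 CPM in CQ, against 93.0, 102 and 98.9 CPM in LPM. The groups were as clearly apart as for TXNRD1. SRXN1 averaged 304 ± 18.8 CPM in CQ and 97.9 ± 4.48 CPM in LPM, 3.11-fold higher (log2 fold change 1.63, SE 0.10, adjusted p = 3.52e-06).

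HMOX1 stayed sparse, with 95, 135 and 159 counts in CQ and 43, 32 and 63 in LPM. This came to 6.39, 8.24 and 10.0 CPM in CQ, against 2.20, 1.57 and 2.55 CPM in LPM. Even the lowest CQ library was above the highest LPM library. The log2 fold change was 1.96 (SE 0.38, 3.89-fold, adjusted p = 0.00262). Macrophage markers summed to 29.5 to 41.9 CPM in CQ and 70.4 to 91.0 CPM in LPM, and CD163, C1QA, C1QB, C1QC and MSR1 were at 0 in both. Of 4 markers tested, 3 were lower and 1 higher in CQ. CD68, the largest part of the sum in LPM, averaged 22.6 ± 1.85 CPM in CQ and 55.6 ± 5.57 CPM in LPM. CSF1R averaged 1.31 ± 0.668 CPM in CQ and 0.0676 ± 0.117 CPM in LPM (log2 fold change 4.06, adjusted p = 0.0264). Both were named after their values were seen, and their part in the HMOX1 difference was not tested.

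The ligase subunits changed in opposite directions. GCLC had 342, 343 and 354 CPM in CQ, against 620, 591 and 572 CPM in LPM. GCLM had 37.9, 60.3 and 37.7 CPM in CQ, against 27.6, 22.8 and 23.2 CPM in LPM. CQ libraries were uniformly lower for GCLC and higher for GCLM, for which CQ replicate 2 stood above the others. GCLC averaged 346 ± 6.68 CPM in CQ and 594 ± 24.2 CPM in LPM, a log2 fold change of -0.78 (SE 0.09, adjusted p = 0.000102). GCLM averaged 45.3 ± 13 CPM in CQ and 24.5 ± 2.7 CPM in LPM, a log2 fold change of 0.89 (SE 0.21, adjusted p = 0.00665). The per-length ratio of GCLC to GCLM was therefore 7.25 to 12.0 in CQ and 28.6 to 33.1 in LPM, with no overlap.

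SLC7A11 had 59.5, 62.9 and 53.2 CPM in CQ, against 49.1, 49.2 and 35.7 CPM in LPM. CQ libraries were all higher, though LPM replicate 3 sat below its group. The log2 fold change of 0.39 (SE 0.16) was not called (adjusted p = 0.0664), but passed with library totals (0.046), epithelium size factors (0.71, adjusted p = 0.00501) and a replicate block (0.0478). GSR had 60.2, 68.1 and 74.1 CPM in CQ, against 52.4, 51.8 and 50.2 CPM in LPM. It was higher in every CQ library (0.39, SE 0.12, adjusted p = 0.0252), but the call was lost without LPM replicate 1, 2 or 3 (0.0843, 0.11 and 0.0536), without CQ replicate 2 or 3 (0.066 and 0.0851), with the low count filter off (0.0929) and with a replicate block (0.055).

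NQO1 had 82.6, 81.5 and 74.4 CPM in CQ, against 90.1, 88.1 and 107 CPM in LPM. CQ libraries were lower, but not by more than the spread allowed (log2 fold change -0.26, SE 0.12, adjusted p = 0.104), and with epithelium size factors the sign turned (0.06). NFE2L2 had 143, 183 and 149 CPM in CQ, against 270, 269 and 290 CPM in LPM. It was lower in every CQ library, averaging 158 ± 21.8 CPM in CQ and 276 ± 11.8 CPM in LPM (-0.80, SE 0.12, adjusted p = 0.00056). Its neighbours on the opposite strand rose, HNRNPA3 by 0.52 (adjusted p = 0.0013) and AGPS by 0.80 (adjusted p = 0.00301) on the log2 scale.

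Of the 93 other pathway genes tested, 34 rose and 31 fell in CQ, and 44 rose and 24 fell with epithelium size factors. The share over all genes with TMM scaling, to set beside each list, was 23.1% higher and 24.8% lower. With epithelium size factors, 4811 of all 13827 genes were called higher and 2378 lower. Regulators had 5 higher and 3 lower of 13. MAFG, a small MAF partner of NRF2, averaged 145 ± 7.08 CPM in CQ and 53.0 ± 1.95 CPM in LPM (log2 fold change 1.46, adjusted p = 7.93e-06). Another small MAF, MAFF, averaged 2.88 ± 3.29 CPM in CQ and 86.6 ± 10.1 CPM in LPM (-4.89, adjusted p = 0.000194). SQSTM1, the p62 autophagy receptor that binds KEAP1, averaged 683 ± 26.5 CPM in CQ and 282 ± 28.2 CPM in LPM (1.27, adjusted p = 1.6e-05). KEAP1, named after its values were seen, averaged 88.9 ± 11.2 CPM in CQ and 65.8 ± 2.07 CPM in LPM (0.43, adjusted p = 0.0168).

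Glutathione genes divided, with 7 higher and 6 lower of 15. SLC3A2, the heavy chain that pairs with SLC7A11, averaged 291 ± 5.47 CPM in CQ and 77.5 ± 8.71 CPM in LPM (log2 fold change 1.91, adjusted p = 2.82e-06). Glutaredoxin GLRX averaged 15.5 ± 3.06 CPM in CQ and 2.06 ± 0.79 CPM in LPM (2.90, adjusted p = 0.000215). MGST1, a microsomal glutathione transferase, averaged 201 ± 13.5 CPM in CQ and 1070 ± 119 CPM in LPM (-2.42, adjusted p = 8.17e-07). The exporter ABCC4 was also lower, at 15.3 ± 5.67 CPM in CQ and 345 ± 69.0 CPM in LPM (-4.50, adjusted p = 4.25e-06).

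The rest of the thioredoxin list did not follow TXNRD1 and SRXN1: 2 rose and 8 fell of 14. Its median log2 fold change was -0.45, against -0.07 over all genes. PRDX6 averaged 88.5 ± 15 CPM in CQ and 341 ± 21.2 CPM in LPM (-1.94, adjusted p = 7.79e-06). Mitochondrial thioredoxin TXN2 averaged 47.2 ± 8.88 CPM in CQ and 24.9 ± 0.913 CPM in LPM (0.92, adjusted p = 0.0015). The other gene that rose was TXNRD3 (0.62, adjusted p = 0.0112), which was not called without LPM replicate 2 (0.0637). Thioredoxin itself, TXN, named after its values were seen as the substrate of TXNRD1, fell by 0.74 on the log2 scale (adjusted p = 0.00123).

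NADPH genes had 5 higher and 1 lower of 8. Transketolase TKT averaged 366 ± 3.36 CPM in CQ and 139 ± 9.34 CPM in LPM (log2 fold change 1.39, adjusted p = 6.32e-06). The gene that fell was IDH1 (-0.36, adjusted p = 0.00977), at -0.04 with epithelium size factors. Of 10 heme and iron genes 5 rose and 1 fell. Beside HMOX1, the biliverdin reductase BLVRB averaged 52.6 ± 4.06 CPM in CQ and 13.3 ± 2.94 CPM in LPM (1.98, adjusted p = 3.66e-05). FTL, with the same untested limit on its level, averaged 6050 ± 123 CPM in CQ and 2160 ± 265 CPM in LPM (1.49, adjusted p = 5.79e-06).

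Detoxification genes had 4 higher and 6 lower of 16. OSGIN1, an NRF2 target induced by oxidative stress, averaged 166 ± 19.7 CPM in CQ and 23.7 ± 1.15 CPM in LPM (log2 fold change 2.81, adjusted p = 8.05e-07). The retinal dehydrogenase ALDH1A1 averaged 79.5 ± 20.5 CPM in CQ and 1090 ± 65.8 CPM in LPM (-3.77, adjusted p = 1.35e-06). The ATF4 list had 5 higher and 5 lower of 14. ATF3 averaged 225 ± 16.6 CPM in CQ and 11.7 ± 2.55 CPM in LPM (4.27, adjusted p = 4.84e-07). CHAC1, which breaks down glutathione, averaged 57.2 ± 5.01 CPM in CQ and 12.9 ± 1.26 CPM in LPM (2.14, adjusted p = 6.47e-06). DDIT4 averaged 74.9 ± 4.12 CPM in CQ and 2460 ± 183 CPM in LPM (-5.04, adjusted p = 4.73e-08).

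CQ libraries also differed from LPM libraries in other measures. They had 14014 to 16005 genes with a count, against 17489 to 17920 in LPM. Over genes averaging 10 to 30 counts, the median ratio of variance to mean between replicates was 15.1 in CQ and 1.54 in LPM. Another measure did not give the same order. A chi-square comparison of replicate pairs over more genes gave 16.3 to 18.8 per gene in CQ. In LPM it gave 5.89 for replicates 1 and 2, 52.0 for 1 and 3, and 35.4 for 2 and 3. MKI67 averaged 2.6 ± 3.39 CPM in CQ and 79.0 ± 19 CPM in LPM (log2 fold change -4.90, adjusted p = 0.000634). The part of these differences in the levels above was not tested.

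**Figure D5:**
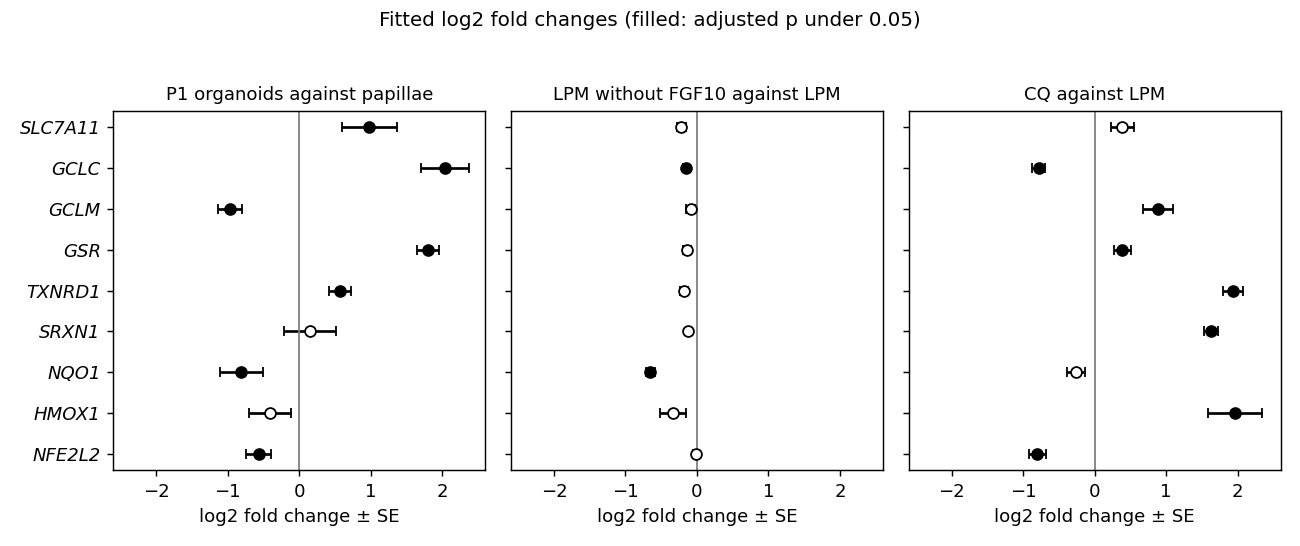
Log2 fold changes of the 9 genes, with SE, for passage 1 organoids against papillae, LPM without FGF10 against LPM, and CQ against LPM. Filled points have an adjusted p under 0.05, in the first comparison without pig as a block. GCLC and GCLM lie on opposite sides of 0 in the first and last comparison, and all 9 values for LPM without FGF10 lie below 0 with this TMM scaling, NFE2L2 not with the other scalings of library totals or epithelium genes.

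The levels were finally set side by side over all 22 libraries, scaled together over genes in both annotations. This crosses experiments, so it carries no test. NQO1 averaged 238 CPM in passage 1 organoids, 431 in papillae, 94.9 in LPM without FGF10, 149 in its LPM group, 79.6 in CQ and 98.5 in the LPM group beside CQ. Papillae stood highest and CQ lowest, both without overlap, while the LPM group beside CQ overlapped with LPM without FGF10. GCLC averaged 503 CPM in passage 1 organoids, 126 in papillae, 637 in LPM without FGF10, 711 in its LPM group, 347 in CQ and 614 in the LPM group beside CQ. Papillae were lowest without overlap, and LPM of the FGF10 experiment had the highest mean. NFE2L2 averaged 189 CPM in passage 1 organoids, 289 in papillae, 266 in LPM without FGF10, 270 in its LPM group, 159 in CQ and 286 in the LPM group beside CQ. Papillae overlapped with the LPM group beside CQ at the top, and passage 1 organoids with CQ at the bottom.

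TXNRD1 was highest in CQ at 86.8 CPM, and between 23.6 and 41.9 CPM in the other groups. SRXN1 was also highest in CQ, at 304 CPM, with the other groups between 101 and 147 CPM and their neighbours in that order overlapping. GSR was lowest in papillae at 27.7 CPM and between 53.2 and 93.7 CPM in the 5 organoid groups. GCLM was highest in papillae and CQ, at 48.2 and 45.3 CPM, which overlapped, and 23.2 to 25.4 CPM elsewhere. HMOX1 averaged 2.18 to 8.24 CPM and SLC7A11 26.3 to 58.6 CPM, in both cases highest in CQ and with neighbouring groups overlapping.

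Scaled per kilobase of annotated exon, so that genes can be compared, the gene with the highest mean differed between groups. NQO1 had the highest mean in passage 1 organoids, at 140 CPM per kilobase with GCLC at 126 and their ranges over libraries overlapping, and in papillae, at 254 with SRXN1 next at 50.0. GCLC led in LPM without FGF10, at 159, in its LPM group, at 178, and in the LPM group beside CQ, at 153. SRXN1 led in CQ, at 119, followed by GCLC at 86.6 and NQO1 at 46.8. HMOX1 was the lowest of the 9 in every group except papillae, where SLC7A11, at 2.81, lay below HMOX1, at 3.98.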

How the data were processed

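The deposited values are raw counts, whole numbers of read pairs assigned to each gene by the authors' run of featureCounts (2.0.3 for 16 libraries, 2.0.6 for the 6 of the CQ experiment, per the file headers), with strand ignored and pairs over several genes counted for each. STAR 2.7.10b is named in the submitters' processing notes. Positions are Sscrofa11.1. In the CQ experiment 1 nameless entry, 0.326 to 0.477% of counts, was left out. Each comparison was fitted on its own groups with edgeR's quasi-likelihood F test (version 4.0.16, R 4.3.3) after filterByExpr and TMM scaling. P-values were Benjamini-Hochberg adjusted over every gene in the fit, and a gene was called under 0.05. CPM and SDs are TMM-scaled and describe libraries, and fold changes come from the fit. Alternatives used DESeq2 1.42.0, limma 3.58.1 voom weights, other scalings, no filter, thinned libraries, a replicate block and leaving out each library. Organoid and papilla numbers pair because they name the same pig, and correlations of same-numbered deviations were 0.0355 to 0.11 over 5 pairs.

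The 9 genes and the lists were chosen with earlier results of these data known. Named besides the 9 were up to 2 called genes per list and direction by smallest p, whose average log2 CPM reached 1. The text gives a selection of these, and 1 gene counted in the NADPH list is not reported here by name. In a chi-square comparison no pair of replicates had counts alike within sampling noise, which says nothing of whether they came from separate cultures.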

Additional observations from a re-analysis of the deposited data

Results flagged for a closer look

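GCLC in papilla 4 stood apart from the other papillae, at 217 CPM against 74.0 to 115 CPM in the other 4. Its gap to the nearest papilla was 0.711 of the group's range. Of 18 groups of 5 libraries examined, the 9 genes in organoids and in papillae, 1 was singled out in this way, and chance gives about 1 in 20. Without papilla 4 the log2 fold change of GCLC between passage 1 organoids and papillae was 2.38 (adjusted p = 6.4e-05), against 2.04 with it.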

How the results depend on the processing

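With epithelium size factors the sign turned between organoids and papillae for TXNRD1 (-0.19), SRXN1 (-0.67), CUL3 (-0.17) and RBX1 (-0.43), for NFE2L2 without FGF10 (0.04) and for NQO1 in CQ (0.06). This scaling moved the median log2 fold change of all genes to -0.78 between organoids and papillae, so TXNRD1 and SRXN1 still lay above that median. The median was 0.28 with library totals and -0.01 with TMM. In CQ it was 0.25 with epithelium size factors and -0.07 with TMM. NFE2L2 without FGF10 came to 0.00 with library totals, and SRXN1 between organoids and papillae to -0.02 without papilla 3, within -0.02 to 0.55 with 1 library left out. Of the calls between organoids and papillae 48.0% were upward, 59.6% with library totals and 12.1% with epithelium size factors. Without FGF10 the upward share was 32.7%, and 71.5% with epithelium size factors.

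Without FGF10, 254 genes were called, 429 with no filter on low counts and 125 to 294 with 1 library left out. The 125 came without LPM replicate 2. Of the 9 genes 2 were called, 1 with library totals, 1 with epithelium size factors, and 1 to 2 with 1 library left out. Between organoids and papillae, leaving out 1 library gave 10443 to 11577 genes and 5 to 8 of the 9. In CQ it gave 4933 to 7112 genes and 6 to 7 of the 9.

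With the pig as a replicate block, 10679 genes and 5 of the 9 were called between organoids and papillae, the lost calls being NQO1 and SLC7A11. In the medium experiments same-numbered libraries share only a number (correlations of -0.0457 to 0.0475 and -0.00754 to 0.0213), and the replicate block gave 234 genes and 2 of the 9 without FGF10, and 6120 genes and 7 of the 9 in CQ. The cause of these differences was not tested. At 32 to 215 counts per library, HMOX1 is the gene most limited by depth.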

Other observations

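Over all 22 libraries, the genes whose log2 levels followed NQO1 most closely among 13240 compared were MYZAP (Pearson r = 0.924), LRRC32 (0.911), WFDC1 (0.909), ESYT3 (0.906) and ANXA9 (0.904). Over the 17 organoid libraries alone these values were 0.87, 0.81, 0.82, 0.84 and 0.84. The other 8 genes described above were left out of this ranking. Among the 9 genes themselves, the strongest pooled values were these: the level of TXNRD1 ran against that of NFE2L2 (r = -0.86) and the level of GCLM against that of GCLC (r = -0.73). GCLC ran with SLC7A11 (r = 0.74), SRXN1 with TXNRD1 and with SLC7A11 (r = 0.73 each) and GCLM with HMOX1 (r = 0.72). Values among the 9 were not computed for organoids alone. The libraries share pigs, media and experiments, so these values are descriptions.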
